A study of Mus musculus with 12 samples.

Results

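Interferon-stimulated genes are the genes that cells switch on after an interferon has bound its receptor, and 10 of them were followed here. They were Ddx58, a cytoplasmic sensor of viral RNA, the transcription factors Irf7 and Irf9, the antiviral proteins Ifit1, Ifit2, Ifit3, Bst2 and Ifitm3, the GTPase Gbp2 and the apoptosis-associated protein Xaf1. The rule names these genes and sets no threshold on their values, although earlier results of these data were known when they were named. Every probe set whose platform annotation gives exactly 1 of these symbols was read. This gave 14 of 45101 probe sets for 10 of 18194 genes tested. For the 3 genes with several probe sets, the brightest over all 12 arrays was the main reading, and the others are given beside it.

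The RNA came from mouse embryonic stem cells, which are self-renewing cells of the early embryo, with both alleles of Thap11 flanked by loxP sites. Thap11 encodes Ronin, a zinc finger protein. Knockout cells were CreERT2; Roninflox/flox, where CreERT2 is a Cre recombinase that enters the nucleus when tamoxifen is present. Control cells were Roninflox/flox with no CreERT2. All 6 groups received tamoxifen at 0.25 µM, so the drug is common to both genotypes, and they were knockout and control cells of day 1.5, of day 3 and of day 6, with 2 arrays each. Cells were replated on day 4. Every knockout array carries CreERT2 and no control array does, so an effect of the recombinase, or a difference between the lines, cannot be told apart from the loss of Thap11. Separate cultures are not stated for the 2 arrays of a group, so each p-value reflects the spread among the arrays at hand, which may be technical.

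As background, an interferon bound to its receptor activates the kinases Jak1 and Tyk2, which phosphorylate STAT proteins. With Irf9, phosphorylated STATs form a complex that binds the interferon-stimulated response element, a short repeated sequence in the promoters of many of the genes described here. Irf7 amplifies the response by driving interferon genes, and Ddx58, also called RIG-I, starts it when it meets viral RNA. Mouse embryonic stem cells are known for a weak interferon response compared with differentiated cells. Ronin is known to bind a longer DNA motif near the start sites of its target genes, together with the cofactor HCF-1.

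Intensities are linear RMA values, for which the array medians lay between 42.4 and 44.7. The medians of day 3 were the highest in both genotypes, at 44.36 to 44.72, against 42.37 to 43.04 on days 1.5 and 6. The cause of this day 3 shift was not tested. Within each group both arrays had an r of 0.998 to 0.999 over genes. Thap11 read 327 and 354 in knockout cells of day 1.5, 110.2 and 92.7 in those of day 3 and 50.6 and 51.5 in those of day 6, against 1181 to 1382 in the 6 control arrays. It was not examined whether the Thap11 probes fall within the deleted segment. Embryonic stem cell markers summed to 86759.5 to 86970.2 in knockout cells and 83389 to 85821 in control cells of day 1.5. Their day 3 sums were 83710 to 85149 in knockout cells and 81834 to 83969.6 in control cells, with overlap. On day 6 they were 84756 to 85077 in knockout cells and 82046 to 82289 in control cells. Of the 12 markers, 2, 3 and 3 were higher and 1, 2 and 2 lower on days 1.5, 3 and 6. These are 25%, 41.7% and 41.7%, where 9.91%, 23.4% and 32.5% of all genes passed. Pou5f1, a defining pluripotency factor, was at -0.013, 0.081 and 0.14 on the log2 scale (limma adjusted p = 0.91, 0.27 and 0.051), and its day 6 difference passed without either control array of day 3 (0.043). Among the other markers, another probe set of Klf4 was lower on each day, at -0.45, -0.50 and -0.55. Its limma adjusted p was 0.027, 0.0055 and 0.002 with all probe sets tested. On day 6 another probe set of Utf1 was lower, at -0.35 (0.022 likewise), and another of Tbx3 was higher, at 0.44 (0.0089). In such bulk RNA, fewer cells of a type and less RNA per cell cannot be told apart.

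The members did not move as a block. Ifit2 was lower in knockout cells on each day, and by day 6 it stood at 0.214 of its control level. Its family members Ifit1 and Ifit3 and the factor Irf7 were dim on every array and, like the 10 interferon genes measured, passed the test on no day. Bst2 was higher on day 1.5 and lower on day 6, and Ifitm3 was higher on days 1.5 and 3. Gbp2 was lower on days 1.5 and 6, and the probe sets of Xaf1 contradicted each other.

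The bases before the start sites of 5 members are printed to show the Ronin motif in Ifit2 and the interferon response element in the 4 members that hold it before the start. These members were picked for their motifs, so the contrast between them is set by that choice. Each sequence holds the 250 bases before the annotated start, 5′ to 3′ on the gene's own strand, taken from RefSeq on GRCm38.p6, and capitals mark a motif. In Ifit1, Ifit3, Bst2 and Gbp2 the capitals mark the core of the interferon-stimulated response element, which is GAAA, any 2 bases and GAAA, or on the other strand TTTC, any 2 bases and TTTC. In Ifit2 they mark the core of the Ronin motif, which is ACTACA, any 2 bases and TCCCA, and lies here on the other strand as TGGGA, any 2 bases and TGTAGT. Ifit1 lies at chr19:34640639-34640888 on the plus strand, Ifit2 at chr19:34550444-34550693 on the plus strand and Ifit3 at chr19:34583279-34583528 on the plus strand. Bst2 lies at chr8:71537473-71537722 on the minus strand and Gbp2 at chr3:142620413-142620662 on the plus strand.
Ifit1: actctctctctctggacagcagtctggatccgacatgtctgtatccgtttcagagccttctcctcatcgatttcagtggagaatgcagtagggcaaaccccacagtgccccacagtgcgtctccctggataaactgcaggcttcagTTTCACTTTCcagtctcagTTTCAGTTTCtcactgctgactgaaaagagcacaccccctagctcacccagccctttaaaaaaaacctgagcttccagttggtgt
Ifit2: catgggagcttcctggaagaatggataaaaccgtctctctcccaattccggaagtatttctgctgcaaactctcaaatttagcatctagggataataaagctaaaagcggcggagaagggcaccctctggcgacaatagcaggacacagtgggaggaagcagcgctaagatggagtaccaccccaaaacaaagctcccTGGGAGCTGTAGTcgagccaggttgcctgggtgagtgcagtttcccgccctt
Ifit3: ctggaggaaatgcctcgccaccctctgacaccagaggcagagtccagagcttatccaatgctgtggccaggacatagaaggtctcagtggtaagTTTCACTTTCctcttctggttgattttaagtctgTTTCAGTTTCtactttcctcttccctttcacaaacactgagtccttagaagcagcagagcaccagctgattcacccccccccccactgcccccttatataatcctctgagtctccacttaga
Bst2: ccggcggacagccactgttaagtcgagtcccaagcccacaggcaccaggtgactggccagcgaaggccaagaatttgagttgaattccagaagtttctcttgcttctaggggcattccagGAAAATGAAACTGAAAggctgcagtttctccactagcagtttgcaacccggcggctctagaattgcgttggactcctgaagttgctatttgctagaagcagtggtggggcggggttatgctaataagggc
Gbp2: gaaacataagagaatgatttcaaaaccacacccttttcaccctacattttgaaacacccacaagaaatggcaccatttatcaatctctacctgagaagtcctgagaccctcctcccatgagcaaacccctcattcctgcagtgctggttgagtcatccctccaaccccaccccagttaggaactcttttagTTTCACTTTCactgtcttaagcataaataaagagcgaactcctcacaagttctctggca
Ifit1, Ifit2 and Ifit3 are neighbours on chromosome 19, and the upstream bases of Ifit1 and Ifit3 each hold 2 copies of the response element core. No copy of that core was found in either Ifit2 window. A second interferon element, the gamma-activated site, which STAT dimers bind, was searched by its core of TTC, any 3 bases and GAA, and 1 match lies in the first Ifit2 promoter, TTCCTGGAA, at positions -241 to -233 from the start.

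All 10 members matched the RefSeq promoter table, with 12 promoters between them, since Ifit2 and Irf9 have 2 annotated starts each. The window searched for motifs ran from 250 bases before the start to 50 after it, on both strands. The response element core was present in 1131 of 32851 promoters of that table (3.44%). Among the members it was found in Ifit1, Ifit3, Bst2, Ifitm3, Ddx58 and Gbp2, and not in the windows of Ifit2, Irf7, Irf9 or Xaf1. In Bst2 the 2 copies overlapped, and in Ifitm3 and Ddx58 every match lay after the start. The core of the gamma-activated site was present in 2726 promoters (8.30%), and among the members in Ifit2, Bst2 and Ifitm3. The Bst2 match overlaps its response element, and the Ifitm3 match lies after the start. The Ronin motif core was present in 484 of the 32851 promoters (1.47%). Among the members it was found in the first of the Ifit2 promoters alone, as TGGGAGCTGTAGT, 52 to 40 bases before the start. This motif was searched with the fall of Ifit2 already known, so the match is a description, and a window with no match says nothing about binding elsewhere.

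Genes that share the Ronin core with Ifit2 give the scale of that description. Of 408 measured genes with the core in a promoter, 37 were lower in knockout cells on day 1.5 (9.07%), 134 on day 3 (32.8%) and 184 on day 6 (45.1%). Over all 14453 measured genes with a listed promoter, the lower shares were 4.03%, 10.2% and 15.5% on the same days. Genes with the core that were higher numbered 37, 85 and 87, which is 9.07%, 20.8% and 21.3%, against 6.01%, 13.4% and 17.5% over all measured genes with a listed promoter. Both the lower and the higher shares were thus above those of all promoter genes on each day. For the 524 measured genes with the response element core, 31, 48 and 72 were lower (5.92%, 9.16% and 13.7%) and 27, 79 and 88 were higher (5.15%, 15.1% and 16.8%), and their median log2 fold change on day 6 was -0.00054.

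**Figure D1:**
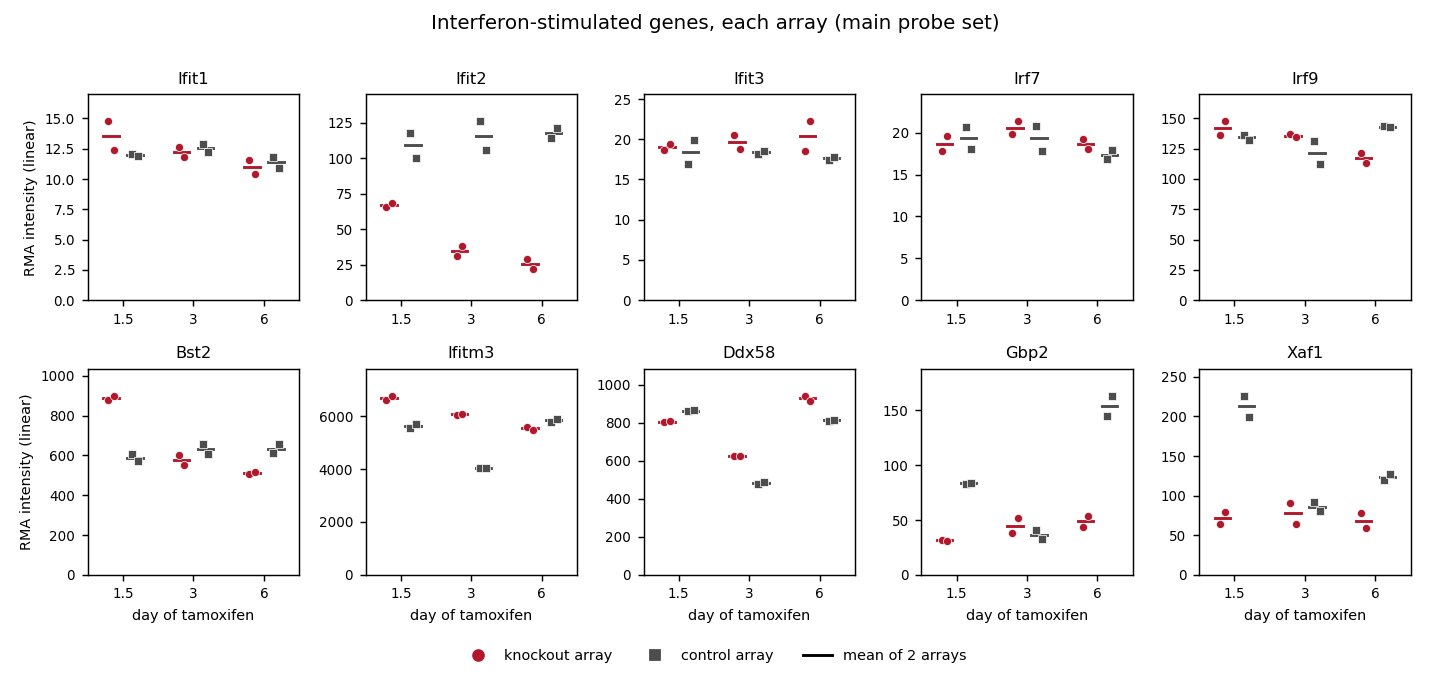
Linear RMA intensity of the main probe set of each of the 10 genes on each array (points, knockout left of control at each day; bars, mean of 2 arrays; x axis, day of tamoxifen). Ifit2 reads 21.9 to 68.4 in the knockout arrays and 100.4 to 126 in the control arrays, with no overlap on any day, while Ddx58, Ifitm3, Gbp2 and Xaf1 dip in the controls of day 3.

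The main comparison asked how knockout cells differed from control cells of the same day. Tests were made with limma on log2 intensities over all genes, with Benjamini-Hochberg adjusted p and a threshold of 0.05. On day 1.5, 2 members were higher and 3 lower of 10, where 9.91% of all genes passed (5.93% higher and 3.98% lower). On day 3, 2 were higher and 1 lower, against 23.4% of all genes (13.3% higher and 10.0% lower). By day 6, 1 was higher and 5 were lower, against 32.5% of all genes (17.2% higher and 15.3% lower). The median absolute log2 fold change of the members was 0.21, 0.16 and 0.25 on days 1.5, 3 and 6, and that of all genes was 0.10, 0.13 and 0.15. With 10 genes, shares of this size rest on very few calls. Xaf1, whose probe sets disagree, is among the lower calls of days 1.5 and 6. Read by its second probe set, the counts were 3 higher and 2 lower on day 1.5, 3 and 1 on day 3, and 2 and 4 on day 6. Without Xaf1 they were 2 and 2, 2 and 1, and 1 and 4 of 9.

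Ifit2, whose protein binds viral RNA and curbs translation, had the largest log2 fold change among the main probe sets of the members on days 3 and 6. On day 3 the second probe set of Xaf1 lay further from 0, at 2.22. Ifit2 read 65.4 and 68.4 in knockout cells of day 1.5, against 118 and 100.4 in control cells. The day 3 readings were 31.4 and 38.3 in knockout cells, against 126 and 106 in control cells. Those of day 6 were 29.0 and 21.9 in knockout cells, against 114 and 121 in control cells. Every knockout array thus lay below every control array, and the control arrays lay between 100.4 and 126 on all 3 days. The log2 fold changes were -0.70, -1.74 and -2.23 (SE 0.15 each; limma adjusted p = 0.02, 6.2e-05 and 7e-06). The day 1.5 call was lost without control replicate 1 (adjusted p = 0.12), knockout replicate 1 (0.10) or knockout replicate 2 (0.082) of that day, while the calls of days 3 and 6 held without any one array. The fall also deepened within the knockout cells, by 0.95 on the log2 scale from day 1.5 to day 3 (adjusted p = 0.0029) and by 1.41 to day 6 (adjusted p = 0.00013). Ifit2 is read by 1 probe set.

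Over the 12 arrays the log2 intensities of Ifit2 followed those of Slc1a5, an amino acid transporter, with a Pearson r of 0.995, and those of Thap11 with 0.987, the 2 highest of all genes. These r values describe 12 arrays that fall into groups by genotype and day, and they carry no p. Lipa, a lysosomal lipase gene that is the nearest measured gene on one side of Ifit2, was also lower on each day, at -0.41, -0.40 and -0.51 on the log2 scale (limma adjusted p = 0.02, 0.011 and 0.0022). Lipa was chosen for its position and named after its values were seen. Ch25h, the next gene beyond it, passed on no day, at -0.086, -0.099 and 0.055.

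**Figure D2:**
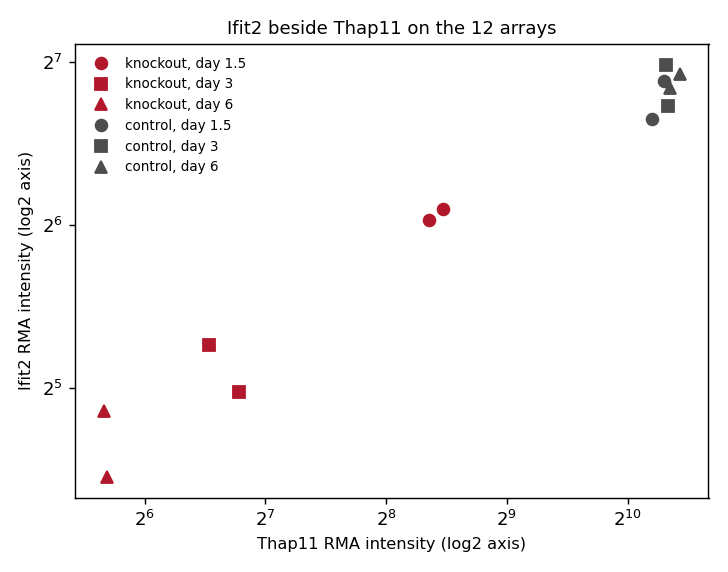
Ifit2 intensity (y axis) against Thap11 intensity (x axis) on the 12 arrays, both on log2 axes, with colour for genotype and shape for day. The 6 control arrays share the upper right corner, and the knockout arrays lie lower on both axes on each later day, down to Ifit2 readings of 29.0 and 21.9 on day 6.

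The other IFIT genes were at the dim end of the array. Ifit1, an RNA-binding antiviral protein, read 10.5 to 14.8 over all 12 arrays, and Ifit3, its partner protein, read 16.9 to 22.2. Both lie far below the array medians, and no detection calls were used here. Neither passed the test on any day: the log2 fold changes of Ifit1 were 0.18, -0.038 and -0.049 and those of Ifit3 were 0.048, 0.10 and 0.20 on days 1.5, 3 and 6 (limma adjusted p = 0.17 or above). Without knockout replicate 1 of day 6, the Ifit3 difference of that day became 0.34 with an adjusted p of 0.047. In knockout cells alone, Ifit1 of day 6 was lower than that of day 1.5 by 0.30 on the log2 scale (adjusted p = 0.031), a call lost without knockout replicate 1 of day 1.5 (0.21) or knockout replicate 2 of day 6 (0.18). The genes most like them over the 12 arrays, Lce1c and Rnf207 for Ifit1 and Tsga8 and Cfap70 for Ifit3, had r of 0.85 to 0.90.

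Of the member transcription factors, Irf9 was lower on day 6 and Irf7 passed on no day. Irf7 read 16.9 to 21.4 over the 12 arrays, with log2 fold changes of -0.052, 0.096 and 0.10 (limma adjusted p = 0.51 or above). Its most similar genes, Ccl11 and A230009B12Rik, had r of 0.91 and 0.90 at low readings throughout. Irf9 was brighter. It read 136 and 148 in knockout cells of day 1.5, against 137 and 132 in control cells, and the groups overlapped. Day 3 gave 137 and 135 in knockout cells, against 131 and 112 in control cells. On day 6 the readings were 121 and 113 in knockout cells, against 143.3 and 143.0 in control cells, with both knockout arrays lower. The Irf9 log2 fold changes were 0.078, 0.16 and -0.29 (SE 0.078 each; limma adjusted p = 0.62, 0.18 and 0.019). Leaving out either control array of day 6 (adjusted p = 0.077 and 0.073), or knockout replicate 2 (0.12), ended the day 6 call. Without control replicate 1 of day 3, the day 3 difference became 0.28 (adjusted p = 0.032). Exosc2 and Bcs1l were most like Irf9 over the 12 arrays, with r of 0.95 and 0.93.

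Ddx58, the RNA sensor, was higher in knockout cells on days 3 and 6 when each day was set against its own controls. Its main probe set read 801 and 809 in knockout cells of day 1.5, against 862 and 864 in control cells. The readings of day 3 were 624 and 627 in knockout cells, against 477 and 486 in control cells, and those of day 6 were 940.3 and 915 in knockout cells, against 808 and 815 in control cells. Both genotypes were thus lowest on day 3, the controls more so. The log2 fold changes were -0.10, 0.38 and 0.19 (SE 0.045 each; limma adjusted p = 0.22, 0.00039 and 0.01), and the day 6 call was lost without control replicate 1 (0.059) or knockout replicate 1 (0.076) of that day. A second probe set read 72.3 and 82.3 in knockout cells of day 3, against 72.2 and 73.6 in control cells, with 135 to 174 on all arrays of the other days. It showed the same day 3 low in both genotypes and no difference between genotypes past the threshold on any day (adjusted p of 0.97, 0.65 and 0.071). The last probe set read 27.9 to 36.2 throughout. With the mean of the 3 probe sets, the day 3 difference was 0.15 (adjusted p = 0.11), so the call of that day rests on the main probe set.

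Bst2, also called tetherin, which holds budding virus particles at the cell surface, changed sides between day 1.5 and day 6. It read 880.1 and 899 in knockout cells of day 1.5, against 607 and 572 in control cells. Day 3 gave 600.2 and 549.6 in knockout cells, against 658 and 608 in control cells. The readings of day 6 were 504 and 515 in knockout cells, against 610.3 and 659 in control cells. Knockout cells of day 1.5 stood apart from the other 10 arrays, which lay between 504 and 659. The log2 fold changes were 0.59, -0.14 and -0.31 (SE 0.069 each; limma adjusted p = 0.0012, 0.19 and 0.0067), and without control replicate 2 of day 6 the last call was lost (-0.26, adjusted p = 0.054). Plvap, the nearest measured gene on one side of Bst2, had the same signs, at 0.63, -0.46 and -0.80 (adjusted p = 0.00053, 0.00058 and 1.3e-05). On the other side Mvb12a was higher on each day, at 0.56, 0.54 and 0.77 (adjusted p = 0.0013, 0.00041 and 2.8e-05). Dusp19 and Sipa1 were most like Bst2 over the 12 arrays, with an r of 0.96 each.

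Ifitm3, a membrane protein that blocks virus entry, was the brightest member. It read 6626 and 6768 in knockout cells of day 1.5, against 5558 and 5709.5 in control cells. The day 3 readings were 6059 and 6095 in knockout cells, against 4049 and 4027 in control cells. On day 6 the gene read 5595 and 5483 in knockout cells, against 5783 and 5907 in control cells. The controls of day 3 held the lowest values, and knockout cells read lower on each later day. The log2 fold changes were 0.25, 0.59 and -0.078 (SE 0.046 each; limma adjusted p = 0.011, 3.8e-05 and 0.25). The day 1.5 call was lost without control replicate 1 (adjusted p = 0.07), knockout replicate 1 (0.054) or knockout replicate 2 (0.079) of that day. Its neighbours Ifitm1 and Ifitm2, which are close in sequence, did not pass on any day, with log2 fold changes of 0.092, -0.049 and 0.13 for Ifitm1 and -0.045, 0.016 and 0.045 for Ifitm2. The day 6 difference of Ifitm1 had an adjusted p of 0.052 and passed without either control array of day 3 (0.043). Zfp27 and Nefh were most like Ifitm3 over the 12 arrays, with r of 0.98 and 0.97.

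Gbp2, a guanylate-binding protein that attacks the vacuoles of intracellular pathogens, was lower in knockout cells on days 1.5 and 6. Its main probe set carries a suffix for probes that also match other transcripts. It read 32.1 and 31.3 in knockout cells of day 1.5, against 83.2 and 84.0 in control cells. Day 3 gave 38.0 and 52.0 in knockout cells, against 41.0 and 32.5 in control cells, and the groups overlapped. On day 6 it read 43.7 and 53.7 in knockout cells, against 145 and 163 in control cells. The log2 fold changes were -1.40, 0.28 and -1.67 (SE 0.16 each; limma adjusted p = 0.0012, 0.26 and 6.3e-05). The other probe set of Gbp2 gave -1.21, 0.26 and -1.53 (adjusted p = 0.003, 0.31 and 8.6e-05 with all 45101 probe sets tested separately, of which 3.27%, 12.6% and 19.5% passed), the same directions throughout. Gbp2b, a paralog and the nearest measured gene on one side, was higher on days 3 and 6, by 1.33 and 0.80 on the log2 scale (adjusted p = 0.00049 and 0.0052). On the other side Kyat3 was lower on days 3 and 6, at -0.22 and -0.55 (adjusted p = 0.037 and 0.00021). Neither gene passed on day 1.5 (adjusted p = 0.12 for Gbp2b and 0.78 for Kyat3). Naa25 and Tars were most like Gbp2 over the 12 arrays, with r of 0.97 and 0.95.

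Xaf1, a protein that binds and opposes the caspase inhibitor XIAP, has 2 probe sets that point in opposite directions, and its direction is unsettled. The main probe set read 63.8 and 79.1 in knockout cells of day 1.5, against 226 and 199 in control cells. On day 3 it read 90.6 and 64.5 in knockout cells, against 91.7 and 80.1 in control cells, with overlap, and on day 6 the values were 78.2 and 58.9 in knockout cells, against 119.9 and 127 in control cells. The log2 fold changes were -1.58, -0.16 and -0.87 (SE 0.18 each; limma adjusted p = 0.0013, 0.6 and 0.006). The second probe set read 68.3 and 91.1 in knockout cells of day 1.5, against 25.4 and 26.5 in control cells. It read 100.4 and 95.8 in knockout cells of day 3, against 22.6 and 19.5 in control cells, and 78.5 and 81.5 in knockout cells of day 6, against 30.6 and 24.3 in control cells. All 6 knockout arrays of this second probe set lay above all 6 control arrays, with log2 fold changes of 1.61, 2.22 and 1.55 (adjusted p = 0.00089, 2.8e-05 and 8.5e-05 with all probe sets tested). The mean of both probe sets gave 0.013 on day 1.5, 1.03 on day 3 (adjusted p = 0.00057) and 0.34 on day 6, so the sign turns on each of the 3 days. Slc38a5 and Mettl25 were most like the main probe set over the 12 arrays, with an r of 0.94 each.

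**Figure D3:**
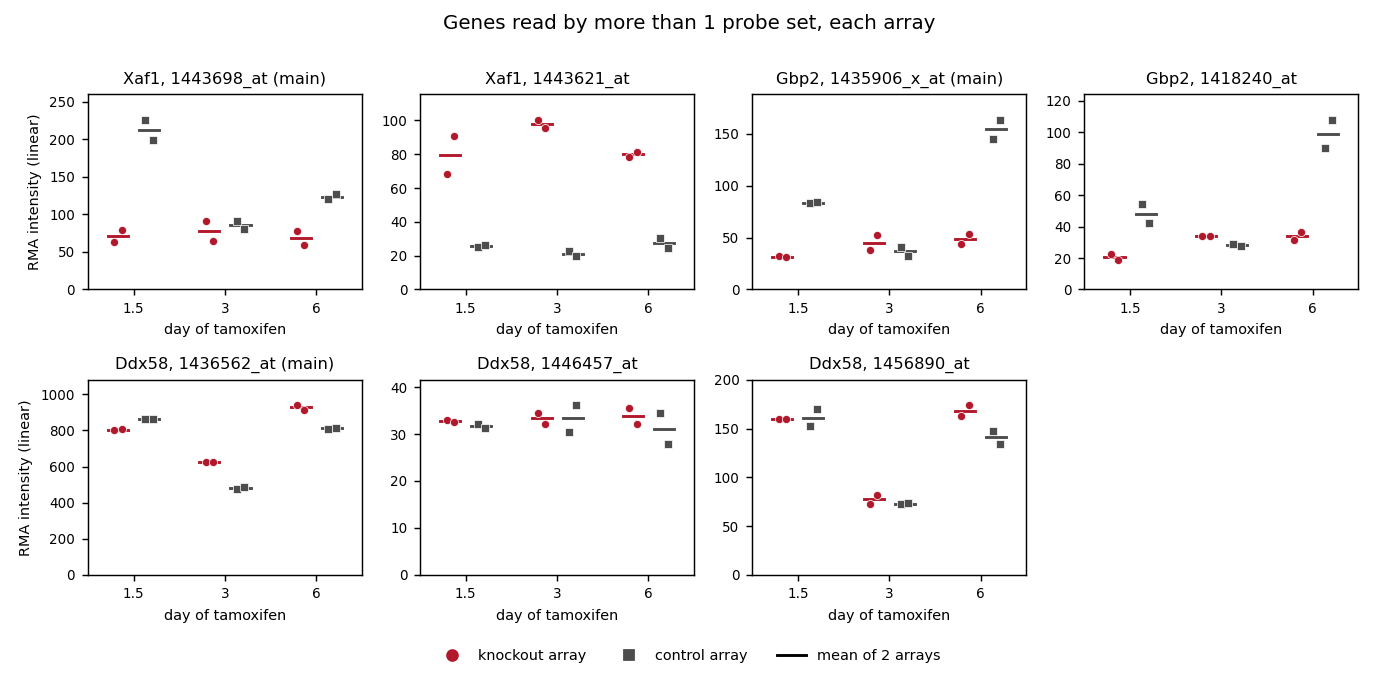
Linear RMA intensity of each probe set of Xaf1, Gbp2 and Ddx58 on each array (points, knockout left of control at each day; bars, mean of 2 arrays; x axis, day of tamoxifen). The Gbp2 probe sets move alike, whereas for Xaf1 the knockout arrays lie at 58.9 to 90.6 on the main probe set, against 80.1 to 226 for control arrays, and at 68.3 to 100.4 on the second, against 19.5 to 30.6 for control arrays.

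**Figure D4:**
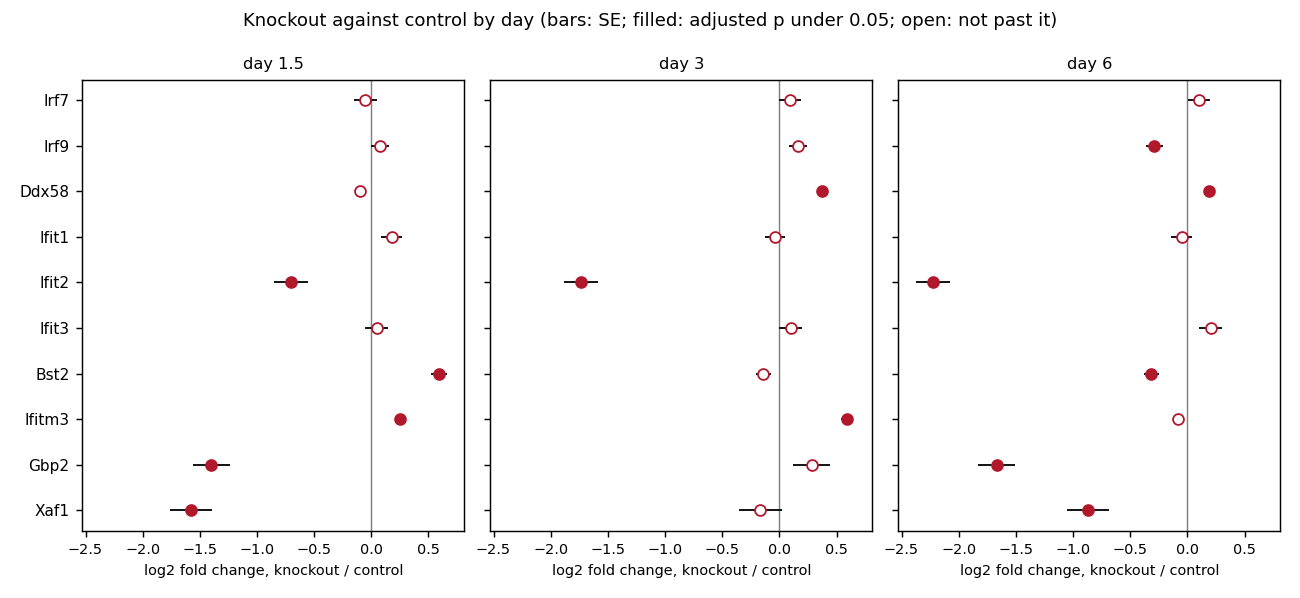
Log2 fold change of knockout over control for the main probe set of each member on days 1.5, 3 and 6 (x axis; bars, standard error; filled points, limma adjusted p below 0.05; open points, not past it). Ifit2 runs to -2.23 on day 6, Bst2 is at 0.59 on day 1.5 and -0.31 on day 6, and Gbp2 is at -1.40, 0.28 and -1.67 on days 1.5, 3 and 6.

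The day 3 values of 4 members depended on the controls they were set against. Against control cells of day 1.5, those of day 3 were lower in 4 members and higher in 0, where 27.3% of all genes passed (9.12% higher and 18.2% lower). The 4 were Ddx58, at -0.84, Ifitm3, at -0.48, Gbp2, at -1.20, and Xaf1, at -1.31 (limma adjusted p = 6e-06, 0.00015, 0.00079 and 0.001). The second probe set of Xaf1 was at -0.30 and did not pass (adjusted p = 0.16 when it stood for the gene). Without control replicate 1 of day 3, Irf9 was also lower, at -0.26 (adjusted p = 0.033). Control cells of day 6 against those of day 1.5 gave 1 call, where 1.57% of all genes passed (1.09% higher and 0.473% lower): Gbp2 was higher, at 0.88 (adjusted p = 0.035). That call was lost without any 1 of the 4 control arrays compared or either knockout array of day 1.5 (adjusted p of 0.063 to 0.16).

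Knockout cells of day 3 were therefore also compared with the averaged control cells of the other 2 days. In that comparison 0 members were higher and 4 lower, where 25.5% of all genes passed (10.0% higher and 15.5% lower). Ifit2 was at -1.71 (limma adjusted p = 2.7e-05), close to its value against day 3 controls. Ddx58 turned to -0.42 (adjusted p = 9.3e-05), Gbp2 and Xaf1 were lower, at -1.35 (adjusted p = 0.00017) and -1.08 (adjusted p = 0.0014), and Ifitm3 no longer passed, at 0.083 (adjusted p = 0.17). The second probe set of Xaf1 was higher here too, at 1.88 (adjusted p = 1.1e-05 when it stood for the gene), which makes the count 1 higher and 3 lower. Markers of other cell types moved with the same samples. Of 12 extraembryonic endoderm markers, 11 were lower in control cells of day 3 than in those of day 1.5 (all genes: 18.2% lower). The list summed to 5716 to 5904 in knockout cells and 5019 to 5205 in control cells of day 3. On day 1.5 that sum was 6606 to 6706 in knockout cells and 8798 to 9068 in control cells, and on day 6 it was 9724 to 9895 in knockout cells and 9078 to 9122 in control cells. The counts of these 12 markers in knockout against control cells were 0 higher and 7 lower on day 1.5, 3 and 2 on day 3, and 2 and 4 on day 6. Of these markers, 58.3%, 41.7% and 50% were called on the 3 days, where 9.91%, 23.4% and 32.5% of all genes passed. Their median log2 fold changes were -0.35, 0.075 and -0.17, so the day 6 sum, to which Sparc gave 3439 in knockout cells and 2537 in control cells, runs against the median. The 15 fibroblast or feeder markers summed to 1175 to 1197 in knockout cells and 847 to 854 in control cells of day 3, and to 1083 to 1120.4 in knockout cells and 2036 to 2099 in control cells of day 1.5. On day 6 they summed to 3679 to 3760.0 in knockout cells and 2827 to 3055 in control cells, with Acta2 at 1601 in knockout cells and 1055 in control cells. The fibroblast or feeder counts were 0 higher and 4 lower on day 1.5, 4 and 0 on day 3, and 3 and 4 on day 6. Of these 15 markers, 26.7%, 26.7% and 46.7% were called, against the same 9.91%, 23.4% and 32.5% of all genes. Their median log2 fold changes were -0.14, 0.14 and -0.13, so here too the day 6 sum runs against the median. No marker is listed at 0, and the part of these cell types in the member values was not tested.

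Within knockout cells, day 3 against day 1.5 gave 0 members higher and 3 lower, where 20.6% of all genes passed (6.97% higher and 13.7% lower). These were Ifit2, Bst2, at -0.63 (limma adjusted p = 0.00047), and Ddx58, at -0.36 (adjusted p = 0.00093). Day 6 against day 1.5 gave 2 higher and 5 lower, where 30.2% of all genes passed (15.9% higher and 14.3% lower). Ddx58 was higher, at 0.20 (adjusted p = 0.0079, and 0.064 without knockout replicate 1 of day 6), as was Gbp2, at 0.61 (adjusted p = 0.018). That Gbp2 call did not hold without either knockout array of day 1.5 (adjusted p = 0.065 and 0.081) or without knockout replicate 2 of day 6 (0.12). Ifit1 and Ifit2 were lower as given above, Bst2 was at -0.80 (adjusted p = 3.4e-05) and Ifitm3 at -0.27 (adjusted p = 0.0018). Irf9 was at -0.27 (adjusted p = 0.025), a call lost without knockout replicate 2 of day 1.5 (0.15) or of day 6 (0.14).

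The genotype difference itself was also compared between days. Day 3 minus day 1.5 was higher in 4 members and lower in 2, where 15.0% of all genes passed (7.62% higher and 7.34% lower). With the second probe set of Xaf1 it was higher in 3 and lower in 2. Day 6 minus day 3 was higher in 0 and lower in 3, against 16.4% of all genes (7.69% higher and 8.75% lower). Day 6 minus day 1.5 was higher in 1 and lower in 4, against 19.3% of all genes (9.32% higher and 10.0% lower). In the last of these, which uses no array of day 3, Ifit2, Bst2, Ifitm3 and Irf9 were lower. Ddx58 was higher there at its main probe set. The Irf9 call was lost without any 1 of 10 arrays (limma adjusted p of 0.055 to 0.15), and the Ddx58 call without knockout replicate 1 of day 6 (0.054).

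The wider pathway was read through lists of genes by role, with counts taken from the same fit over all genes. The shares of all genes called, 9.91%, 23.4% and 32.5% on days 1.5, 3 and 6, are the background of each count that follows. Of 10 interferon genes measured, 0 passed on any day in the limma fit, with 1 on each day at an unadjusted p under 0.05 and 0 on each day with limma's trend and robust settings. Their summed intensity was 250.4 to 269.5 in knockout arrays and 246 to 273 in control arrays, over 10 genes. Of 11 receptor and JAK-STAT genes, 1, 2 and 0 were higher and 0, 0 and 2 lower on days 1.5, 3 and 6. At their brightest probe sets the kinases Tyk2 and Jak1 did not pass, at -0.050, -0.096 and -0.075 for Tyk2 and 0.24, 0.19 and 0.21 for Jak1 (limma adjusted p = 0.12 or above). Without control replicate 1 of day 3, Jak1 of day 3 was at 0.33 (adjusted p = 0.032), and without either control array of day 3 the adjusted p of its day 6 difference was 0.049. Another probe set of Jak1 was higher on day 6, at 0.29 (adjusted p = 0.034 with all probe sets tested). Of 4 genes of the ISG15 system, with Isg15 itself not analysed here, 0 passed on any day at their brightest probe sets, with 0, 0 and 1 at an unadjusted p under 0.05 and 0 on each day with the trend and robust settings. For Herc6, an ISG15 ligase in mice, another probe set was at 0.38 on day 3 and -0.58 on day 6 (limma adjusted p = 0.037 and 0.0032 with all probe sets tested).

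Of 11 interferon regulatory factors and their binding proteins measured, members included, 1 was higher and 1 lower on day 1.5, 0 higher and 1 lower on day 3, and 2 higher and 4 lower on day 6 (18.2%, 9.09% and 54.5% called). Irf3, which carries the signal from RNA sensors to the interferon genes, averaged 467 ± 6.04 in knockout cells and 702 ± 11.5 in control cells of day 6 (SD, n = 2 each; log2 fold change -0.59, limma adjusted p = 3.5e-05). Irf1, an activator of interferon-induced genes, averaged 429 ± 15.9 in knockout cells and 584 ± 27.7 in control cells of day 6 (SD, n = 2 each; -0.45, adjusted p = 0.00038). Of 16 genes of nucleic acid sensing, Ddx58 included, 0 passed on day 1.5, 1 was higher on day 3, and 2 were higher and 1 lower on day 6. The kinase Tbk1, which phosphorylates Irf3, was higher on day 6, at 0.33 (adjusted p = 0.0027).

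Of 39 antiviral effectors measured, members included, 5, 6 and 2 were higher and 6, 2 and 9 lower on days 1.5, 3 and 6. The called shares, 28.2%, 20.5% and 28.2%, lay above that of all genes on day 1.5 and below it on days 3 and 6. Oas1a, which makes the activator of an RNA-degrading enzyme, was lower on day 1.5, with 369 ± 0.134 in knockout cells and 539 ± 24.6 in control cells (SD, n = 2 each; log2 fold change -0.55, limma adjusted p = 0.00096). On day 3 Oas1a was higher, with 625 ± 24.1 in knockout cells and 470.0 ± 14.3 in control cells (SD, n = 2 each; 0.41, adjusted p = 0.0011). Ifi35 was higher on day 3 and lower on day 6, at 0.50 and -0.69 (adjusted p = 0.0012 and 0.00011). Parp12 and Slfn9 were lower on day 6, at -0.70 and -0.94 (adjusted p = 3.2e-05 and 7.6e-05), and the translation-blocking kinase Eif2ak2 was higher, at 0.57 (adjusted p = 0.0034). Another probe set of Slfn9 was at -0.10 on day 6 and did not pass (adjusted p = 0.5 with all probe sets tested). Other probe sets of Eif2ak2 were at 0.78 and 0.15 on that day (adjusted p = 0.0011 and 0.48 with all probe sets tested). In the IFITM family, 1, 1 and 2 of 7 were higher and 0 lower on the 3 days.

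Among GBP and IRG GTPases, which act on pathogen vacuoles, 4 of 11 were higher and 0 lower on day 3, with 0 and 1 on day 1.5 and 2 and 1 on day 6. Irgm1 averaged 118 ± 12.7 in knockout cells and 48.2 ± 4.46 in control cells of day 3 (SD, n = 2 each; log2 fold change 1.30, limma adjusted p = 5.2e-05). On days 1.5 and 6 it was at -0.27 and -0.0016 and did not pass (adjusted p = 0.17 and 0.99). In antigen presentation, 1, 2 and 1 of 12 genes were higher and 1, 0 and 4 lower. The class I light chain gene B2m averaged 934 ± 9.98 in knockout cells and 531 ± 3.59 in control cells of day 6 (SD, n = 2 each; 0.81, adjusted p = 1.1e-05), while the immunoproteasome subunit Psmb10 was lower, at -0.51 (adjusted p = 0.00013).

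Of 8 feedback inhibitors, 0, 1 and 0 were higher and 1 lower on each day. The one that was lower each time was Nlrx1, a mitochondrial protein that restrains the RNA sensor pathway, at -0.72, -0.53 and -1.56 (limma adjusted p = 3e-04, 0.00029 and 3e-07). On day 6 Nlrx1 averaged 59.3 ± 0.221 in knockout cells and 175.0 ± 9.96 in control cells (SD, n = 2 each). Of 16 NF-kB inducible genes, 1, 1 and 3 were higher and 1, 2 and 2 lower. Ubd, a ubiquitin-like modifier induced by cytokines, averaged 282 ± 16.7 in knockout cells and 24.4 ± 1.61 in control cells of day 1.5 (SD, n = 2 each; log2 fold change 3.53, limma adjusted p = 3.7e-05). It was also higher on days 3 and 6, at 1.56 and 2.23 (adjusted p = 0.00055 and 3.8e-05). Of 14 macrophage and lymphoid markers, 1, 1 and 2 were higher and 2, 0 and 2 lower. Their sum was 2503 to 2511 in knockout cells and 3075 to 3206 in control cells of day 1.5. On day 3 it was 2144 to 2181 in knockout cells and 1997 to 2005 in control cells. The day 6 sum was 3745 to 3814 in knockout cells and 2604 to 2631 in control cells. Their median log2 fold changes were -0.042, 0.017 and 0.030.

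Across the 12 arrays the members also went separate ways. The Pearson r of log2 intensity between pairs of members ran from -0.71 for Ifit2 with Ifit3 to 0.68 for Ifitm3 with Ddx58. For Ddx58 itself the most similar genes were 4930444M15Rik and Abcg2, a membrane transporter, both with an r of 0.99. Each r describes 12 arrays that share genotype and day groups.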

How the data were processed

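RNA of 12 samples was measured on Affymetrix mouse expression arrays. The authors deposited a linear intensity for each probe set. The submitters' processing notes name RMA as the tool, and its version is not given in the sources used here. RMA puts all arrays on a common distribution, so a shift shared by all genes is removed. The log2 of each intensity was taken first. Of 45101 probe sets, 34958 had 1 symbol, 932 several and 9211 none, and 34754 matched a RefSeq gene table of GRCm38.p6 by gene ID. Per gene the probe set with the highest mean log2 value was tested, with no filter on dim genes.

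The test was that of limma 3.58.1 (R 4.3.3): all 12 arrays entered 1 fit with 6 group means, variances were moderated by eBayes, and p-values were adjusted over 18194 genes. The fit was tested on simulated data, with changes put into knockout cells of day 6. It recovered 44% of 1.25-fold changes, 88% at 1.5-fold, 98% at 2-fold and 100% at 4-fold, so small differences can be missed. Only a small part of the genes was changed there, whereas 32.5% of all genes passed on day 6 in the data. The adjusted p depends on that share, so these rates need not hold for the real comparisons. The number of arrays limits the precision. The members, lists and motifs were chosen with earlier results of these data known. The text names all members and Thap11, and for each member the 2 genes most like it. From each list and day it takes from among up to 4 other genes with the largest change past the threshold and the 2 brightest, giving those whose calls held without any one array. Klf4, Utf1 and Tbx3 were named for their other probe sets after those values were seen. Ch25h, Lipa, Plvap, Mvb12a, Gbp2b and Kyat3 were added from among the nearest measured neighbours, so position alone did not choose them. Equally near genes past the threshold were not described, among them Rec8 beside Irf9, and Tekt1 and Slc13a5 beside Xaf1. The alternatives tried were leaving out each array, replicate terms, fits on only the arrays compared, trend and robust eBayes, array weights, a filter on dim genes, averaged or separate probe sets, and centring or quantile scaling. Plots were drawn with matplotlib 3.10.9.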

Additional observations from a re-analysis of the deposited data

Results flagged for a closer look

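The results below are those where the limma test of the difference between days, applied to the difference between knockout and control cells, passed. From day 1.5 to day 3 the knockout effect changed for 6 members. On the log2 scale Ifit2 changed by -1.04 (adjusted p = 0.012), Bst2 by -0.73 (0.0016), Ifitm3 by 0.34 (0.0093), Ddx58 by 0.48 (0.0017), Gbp2 by 1.68 (0.0018) and Xaf1, at its main probe set, by 1.41 (0.0076). The second probe set of Xaf1 changed by 0.62 and did not pass (0.074 when it stood for the gene). The second probe set of Ddx58 changed by 0.094 and did not pass either (0.75 with all probe sets tested). The values of Ifitm3, Ddx58, Gbp2 and Xaf1 rest at least in part on control arrays of day 3 that were lower than those of day 1.5. For Gbp2 the knockout cells also read higher on day 3 than on day 1.5. They did so by 0.49 at the main probe set (limma adjusted p = 0.063) and by 0.71 at the other (0.015 with all probe sets tested).

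From day 3 to day 6 the effect changed downward for 3 members. Ifitm3 changed by -0.67 (limma adjusted p = 0.00044) and Gbp2 by -1.95 (0.00097). Irf9 changed by -0.45 (0.024), which was lost without any 1 of 5 arrays, both controls of day 6, both knockouts of day 3 and knockout replicate 2 of day 6 (0.056 to 0.082).

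Between days 1.5 and 6, which use no array of day 3, 1 member changed upward and 4 downward. Ifit2 changed by -1.52 (limma adjusted p = 0.0013), Bst2 by -0.91 (0.00029) and Ifitm3 by -0.33 (0.0079). Ddx58, at its main probe set, changed by 0.29 (0.012), a call lost, at 0.27, without knockout replicate 1 of day 6. Its second probe set changed by 0.27 and did not pass (0.24 with all probe sets tested). Irf9 changed by -0.37 (0.047), a call that was lost when any 1 of 10 arrays was left out, all but the controls of day 3 (0.055 to 0.15).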

How the results depend on the processing

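For the member fold changes between genotypes, 287 values under alternatives other than leaving out an array kept their side of the threshold. A further 5 no longer passed, 4 newly passed and 5 that had passed in the main fit reversed in sign. The reversals were Xaf1 with the mean of its probe sets, at 0.013 on day 1.5 and 0.34 on day 6, Xaf1 at its second probe set (an alternative chosen after seeing the data), at 1.61 and 1.55, and Ddx58 of day 3 against controls of days 1.5 and 6, at -0.42. Sign was compared only for values past the threshold in the main fit, so turns of the others are not counted as reversals. Against controls of days 1.5 and 6, Gbp2 of day 3 went from 0.28 to -1.35 and newly passed. Irf9 of day 3 went from 0.16 to -0.031 there without passing. At its second probe set Xaf1 of day 3 went from -0.16 to 2.22 and newly passed. Of 120 values with 1 array of the comparison left out, 106 kept their call, 12 lost it and 2 gained it, and 0 reversed. The correlation of replicate differences between genotypes was -0.0038, -0.057 and 0.028 on days 1.5, 3 and 6. These values show no strong replicate effect shared by the genotypes, but cannot tell whether replicates were paired, which the labels do not state. With the replicate block over all arrays, members called in control cells of day 6 against day 1.5 were 0, against 1. With the replicate block within a day, members called were 3 for knockout against control on day 1.5, 3 for its difference between days 6 and 1.5, 0 for control cells and 2 for knockout cells of day 6 against day 1.5, and genes called on day 1.5 were 863. With only the arrays compared, genes called were 455 on day 1.5 and 2506 on day 3, and members called in control cells of day 6 against day 1.5 were 0. With the trend and robust settings, genes called on day 1.5 were 2756, and members called were 2 in control cells of day 6 and 5 in knockout cells of day 3, each against day 1.5. With probe sets tested separately, that control count was 0 at the main probe sets. The other probe set of Gbp2 did pass there, at 1.04 (limma adjusted p = 0.03).

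Leaving out 1 array at a time, genes called ran from 714 to 1946 on day 1.5 (all arrays: 1803), 2727 to 4070 on day 3 (4250) and 4314 to 6031 on day 6 (5906). Members called ran from 3 to 5, 3 to 4 and 4 to 6 on those days. Differences of the effect gave 6 in each case for day 3 minus day 1.5, 2 to 3 for day 6 minus day 3 and 3 to 5 for day 6 minus day 1.5. Xaf1 joined the second without knockout replicate 2 of day 3, at -0.95 (adjusted p = 0.043). Against day 1.5, control cells gave 4 to 5 on day 3 and 0 to 1 on day 6, and knockout cells 3 to 4 and 4 to 7. The cause of these changes was not tested beyond the smaller number of arrays. Dim members, Ifit1, Ifit3 and Irf7, limit what the arrays can show.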
